A study of Mus musculus with 20 samples.

Results

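The genes of mitochondrial fatty acid oxidation and ketogenesis were taken as a list of 32 names: 5 for fatty acid uptake and activation, 4 for the carnitine shuttle, 12 for beta-oxidation, 3 for electron transfer and 2 for ketogenesis, with 6 further genes at the edge of the pathway. Each gene was read from the brightest probe set that names it alone, which gave 30 of the 32 genes, out of 18193 genes read in all. Acsl1, a long chain acyl-CoA synthetase, is not analysed here because no probe set of the table carries its name. Cyp4a10, an omega-hydroxylase, shares its only probe set with Cyp4a31 and is given under that pair.

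The livers came from male C57BL/6J mice, 5 per group and 1 array per mouse, that were 7 weeks old at the start and were kept on their diet for 12 weeks, with a fast of 2 h before the livers were taken. The NC group ate normal chow (CRF-1). The CL group ate a diet in which 60% of the calories came from fat, with sodium cholate at 0.5% and cholesterol at 1.25%, and this base was shared by the CL + AX group, which also received 0.02% astaxanthin, a carotenoid, and by the CL + VE group, which also received 0.02% vitamin E. The CL diet thus differs from NC in fat, cholesterol and cholate at the same time, and no group on this fat and cholesterol without cholate was analysed here.

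Mitochondrial beta-oxidation shortens a fatty acid by one acetyl-CoA per round and is a main source of energy for the liver between meals. A fatty acid is first taken up and joined to coenzyme A, then carried over the inner mitochondrial membrane as its carnitine ester. It is then oxidized in rounds of dehydrogenation, hydration, a further dehydrogenation and thiolysis. The electrons of the acyl-CoA dehydrogenases pass through electron transfer flavoprotein to the respiratory chain, and in the fasted liver much of the acetyl-CoA becomes ketone bodies. Many of these genes are known targets of the nuclear receptor PPARA, which pairs with RXRA on a direct repeat of AGGTCA spaced by 1 base.

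The arrays read as liver. Of 9 hepatocyte markers the dimmest (Asgr1) had a mean log2 signal of 11.66, against a median of 4.21 over all probe sets. Of 4 pancreas markers 0 were called between CL and NC. Against NC, 1 was lower in CL + AX and 1 in CL + VE (all genes 11.3% and 7.27%). Such calls do not show whether pancreas RNA was present. The 30 genes were themselves bright, and 27 of them lay in the top 10% of all probe sets. The deposited signals were not on a common scale: the median signal of an array ran from 13.01 to 18.8 in NC, 19.4 to 24.8 in CL, 26.4 to 27.7 in CL + AX and 17.04 to 20.7 in CL + VE. Values below are therefore quantile normalized log2 signals unless another scale is named, a difference of 1 being a 2-fold change in signal. A bulk liver signal cannot tell fewer hepatocytes from less RNA per hepatocyte. NC arrays also had higher 3'/5' signal ratios than CL arrays for the mouse control genes Gapdh, Actb and Pcx and for Dap, a control of Bacillus subtilis. The log2 ratio was lower in CL by 0.74 for Gapdh, 0.51 for Actb, 1.11 for Pcx and 1.90 for Dap (exact permutation test, two-sided, p = 0.00794 for each, the smallest that 5 against 5 arrays allow). Dap is not mouse RNA, and the source of these differences was not tested. These differences in the RNA or its processing and the diet cannot be told apart.

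RefSeq promoter windows (GRCm38.p6, 250 bases before to 50 after each start) were held for 26 of the 32 genes and were searched on both strands for that repeat, read as AGGTCA, any base and AGGTCA, with up to 2 mismatches in its 12 fixed letters. Fabp1, Slc25a20 and Etfa had a match, 3 of 26 genes (11.5%), beside 1190 of 27025 genes in all (4.40%). These windows are shown because they are the members' only matches. Between CL and NC, Slc25a20 was lower under all 4 scalings of the arrays, whereas the readings of Fabp1 and Etfa depended on the scaling. Each is written 5' to 3' on the strand of its gene, with the match in capitals. The Fabp1 window lies at chr6:71199629-71199928 (+) and its match, with 1 mismatch, reads on the opposite strand. The Slc25a20 window lies at chr9:108661886-108662185 (+) and its match, with 2 mismatches, reads on the gene's strand. The Etfa window lies at chr9:55512194-55512493 (-) and its match, with 2 mismatches, reads on the opposite strand.
Fabp1: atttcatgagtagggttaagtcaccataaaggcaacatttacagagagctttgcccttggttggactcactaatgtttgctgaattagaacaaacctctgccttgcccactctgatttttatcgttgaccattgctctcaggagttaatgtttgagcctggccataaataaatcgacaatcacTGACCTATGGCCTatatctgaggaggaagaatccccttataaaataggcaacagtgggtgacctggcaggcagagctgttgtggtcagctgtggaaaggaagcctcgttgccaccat
Slc25a20: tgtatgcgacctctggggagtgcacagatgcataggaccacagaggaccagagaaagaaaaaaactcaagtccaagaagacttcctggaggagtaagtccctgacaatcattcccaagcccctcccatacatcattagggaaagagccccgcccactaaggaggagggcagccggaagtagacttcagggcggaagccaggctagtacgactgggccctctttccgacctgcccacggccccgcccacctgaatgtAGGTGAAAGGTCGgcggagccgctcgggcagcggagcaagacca
Etfa: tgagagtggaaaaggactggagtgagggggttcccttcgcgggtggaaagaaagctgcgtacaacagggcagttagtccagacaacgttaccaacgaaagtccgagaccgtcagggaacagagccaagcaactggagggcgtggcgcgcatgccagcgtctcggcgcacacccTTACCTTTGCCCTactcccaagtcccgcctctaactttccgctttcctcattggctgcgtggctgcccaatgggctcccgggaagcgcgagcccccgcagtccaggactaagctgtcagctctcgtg
A match describes the letters of the window only, and no binding was measured.

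Between CL and NC, 12 of the 30 genes were lower and 1 was higher at an adjusted p under 0.05 (limma, Benjamini-Hochberg over all 45037 probe sets), beside 11.3% of all genes lower and 12.0% higher. Because the members are bright, they were also set beside the 2954 genes in the top 10% of signal, a comparison chosen after the values were seen, of which 21.3% were lower and 20.6% higher. The median log2 fold change of the 30 genes was -0.21 and that of all genes was -0.036. In 13 of the 30 genes every CL mouse lay below every NC mouse, and in 0 did every CL mouse lie above (all genes: 7.85% and 8.07%). The 12 falls ran from 0.34 to 1.30 on the log2 scale and lay, with this scaling, in every step but ketogenesis: 2 of 4 genes of uptake, 3 of 4 of the carnitine shuttle, 5 of 12 of beta-oxidation, 1 of 3 of electron transfer and 1 of 5 edge genes. How many fall depends on the scaling, since 24 of the 30 were called lower with median centring, 23 with trimmed-mean scaling and 5 with the signals as deposited. The direction of the 12 was the same under all 4 scalings. The 5 that passed with the signals as deposited were Slc27a1, Slc22a5, Slc25a20, Eci2 and Decr1. On that scale Acad9 was the 1 member called higher, beside 5132 of all genes.

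**Figure D1:**
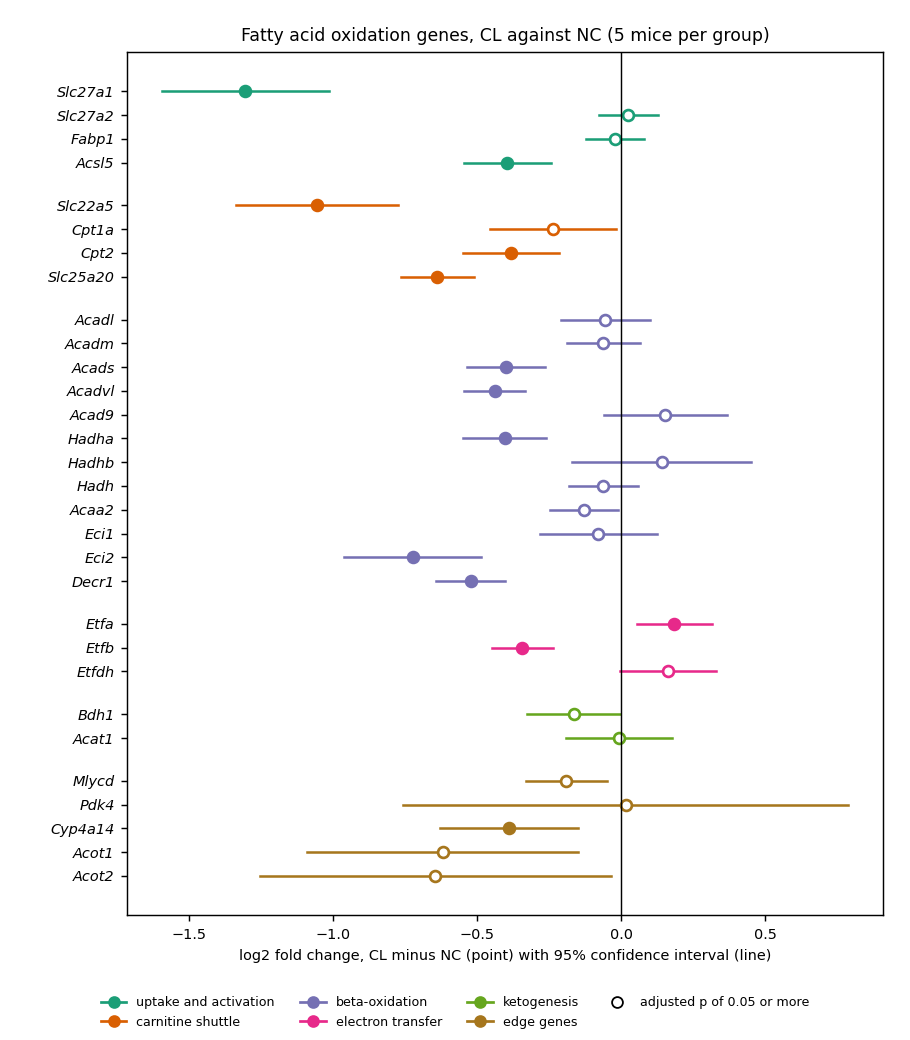
The log2 fold change between CL and NC of each of the 30 genes, grouped by step, with its 95% confidence interval (5 mice per group, limma). Filled points passed an adjusted p of 0.05. Slc27a1 and Slc22a5 lie farthest to the left, and Etfa is the only filled point on the right.

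In uptake and activation, 2 of 4 genes fell in CL. Slc27a1 (FATP1, a fatty acid transport protein with acyl-CoA synthetase activity) read 7.38, 7.32, 7.27, 7.49 and 6.89 in the NC mice, 5.96, 6.03, 6.01, 6.01 and 5.81 in the CL mice, 5.79, 5.79, 6.15, 5.66 and 5.63 in the CL + AX mice and 5.82, 6.04, 6.53, 6.27 and 6.18 in the CL + VE mice. All 5 NC mice lay above all 15 mice on the CL diet, and the 3 CL diet groups overlapped one another. The gene fell by 1.30 on the log2 scale, to 0.405 of the NC signal (SE 0.14, adjusted p = 1.51e-06), and its dimmer probe set moved by -1.42 (adjusted p = 7.82e-05). Acsl5, a long chain acyl-CoA synthetase, read 11.64, 11.29, 11.38, 11.37 and 11.54 in the NC mice, 10.95, 11.20, 11.14, 11.003 and 10.97 in the CL mice, 10.85, 10.98, 10.88, 11.04 and 10.85 in the CL + AX mice and 11.04, 11.11, 10.93, 11.06 and 11.20 in the CL + VE mice. Here too every NC mouse was above every mouse on the CL diet. Acsl5 fell by 0.39 (SE 0.073, adjusted p = 0.000489). Slc27a2, a very long chain acyl-CoA synthetase, differed by 0.025 (95% interval -0.078 to 0.13). It held a rank of 24 to 60 on every array, a narrow band in which quantile normalization leaves it little room to differ. The deposited signal of Slc27a2 was 10780 ± 757 (SD, n = 5) in NC and 10990 ± 604 in CL, before any scaling. Fabp1, the fatty acid binding protein of the hepatocyte cytosol, held a rank of 1 to 4 among the 45037 probe sets on every array, so that quantile normalization fixed its value. With median centring it differed by -0.55 (adjusted p = 0.000191) and with the trimmed mean by -0.41 (adjusted p = 0.00121). Its deposited signal was 15720 ± 1260 (SD, n = 5) in NC, 15220 ± 1330 in CL, 15760 ± 487 in CL + AX and 14290 ± 375 in CL + VE, before any scaling.

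In the carnitine shuttle, 3 of 4 genes fell in CL and the fourth, Cpt1a, did not pass the test with quantile normalization. Cpt1a was called lower with median centring (-0.61, adjusted p = 0.000227) and with the trimmed mean (-0.47, adjusted p = 0.00588). Slc25a20, the carnitine-acylcarnitine carrier of the inner membrane, read 12.42, 12.36, 12.22, 12.28 and 12.33 in the NC mice, 11.65, 11.76, 11.64, 11.64 and 11.74 in the CL mice, 11.76, 11.66, 11.54, 11.65 and 11.54 in the CL + AX mice and 11.70, 11.84, 11.80, 11.61 and 11.83 in the CL + VE mice. No mouse on the CL diet reached the lowest NC mouse, and the spread within each group was small beside the gap. Slc25a20 fell by 0.64, to 0.643 of the NC signal (SE 0.061), with the smallest adjusted p of the 30 genes (4.15e-07). Its second probe set fell by 0.31 (adjusted p = 0.000664). Slc22a5 (OCTN2, which brings carnitine into the cell) read 10.26, 9.91, 10.07, 10.15 and 10.53 in the NC mice, 8.84, 9.25, 9.25, 9.19 and 9.13 in the CL mice, 9.53, 9.51, 9.12, 9.31 and 8.82 in the CL + AX mice and 8.999, 9.11, 9.56, 9.03 and 9.26 in the CL + VE mice. The NC mice again stood wholly above the 3 CL diet groups, which overlapped. Slc22a5 fell by 1.05, to 0.481 of the NC signal (SE 0.14, adjusted p = 1.17e-05). Its dimmer probe set (mean log2 signal 5.75 beside 9.44) differed by -0.34 and did not pass the test (adjusted p = 0.278). Cpt2, which returns the acyl group to coenzyme A on the matrix side, fell by 0.38 (SE 0.080, adjusted p = 0.00158). With the mean of its probe sets the difference was -0.42 (adjusted p = 0.118). Cpt1a, which makes the acylcarnitine at the outer membrane and is the step that malonyl-CoA inhibits, had a lowest, median and highest value of 11.37, 11.84 and 12.04 in NC and of 11.45, 11.57 and 11.61 in CL. The CL values lay inside the range of NC, and the difference of -0.24 (95% interval -0.46 to -0.017) had an adjusted p of 0.138. The other 2 probe sets of Cpt1a, both dimmer, differed by -0.011 and -0.14.

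In beta-oxidation, 5 of 12 genes fell in CL, among them the dehydrogenases of the longest and the shortest chains, while those of the chains between did not pass the test with quantile normalization. The chain length pattern depends on the scaling, since Acadm was called lower with median centring (-0.52, adjusted p = 0.000205) and the trimmed mean (-0.38, adjusted p = 0.000271), as was Acadl (-0.43, adjusted p = 0.00176, and -0.28, adjusted p = 0.00316). Decr1, the 2,4-dienoyl-CoA reductase needed for unsaturated fatty acids, read 12.14, 12.05, 12.08, 12.13 and 12.04 in the NC mice, 11.44, 11.68, 11.61, 11.55 and 11.54 in the CL mice, 11.43, 11.60, 11.52, 11.54 and 11.48 in the CL + AX mice and 11.62, 11.78, 11.80, 11.60 and 11.77 in the CL + VE mice. NC stood apart from the 3 other groups, and every CL + VE mouse was above every CL + AX mouse. Decr1 fell by 0.52 between NC and CL (SE 0.058, adjusted p = 2.37e-06), and its second probe set fell by 0.66 (adjusted p = 1.53e-05). Acadvl, the very long chain acyl-CoA dehydrogenase, read 12.04, 12.01, 12.02, 11.97 and 12.02 in the NC mice, 11.48, 11.63, 11.51, 11.58 and 11.67 in the CL mice, 11.70, 11.63, 11.68, 11.65 and 11.66 in the CL + AX mice and 11.68, 11.67, 11.78, 11.58 and 11.72 in the CL + VE mice. The NC values lay within a narrow band above all others. Acadvl fell by 0.44 (SE 0.051, adjusted p = 3.78e-06). Acads, the short chain acyl-CoA dehydrogenase, read 10.64, 10.85, 10.88, 10.82 and 10.50 in the NC mice, 10.36, 10.40, 10.29, 10.37 and 10.27 in the CL mice, 10.15, 10.25, 10.24, 10.20 and 10.23 in the CL + AX mice and 10.48, 10.43, 10.49, 10.46 and 10.54 in the CL + VE mice. Its CL mice lay wholly below NC, wholly above CL + AX and wholly below CL + VE. Acads fell by 0.40 between NC and CL (SE 0.065, adjusted p = 0.000128). Eci2, an enoyl-CoA isomerase that also acts in peroxisomes, fell by 0.72, to 0.605 of the NC signal (SE 0.11, adjusted p = 0.000104), while Eci1, the mitochondrial isomerase, differed by -0.080 (95% interval -0.28 to 0.12). Acadm and Acadl, the medium and long chain acyl-CoA dehydrogenases, differed by -0.062 (95% interval -0.19 to 0.064) and -0.054 (95% interval -0.21 to 0.099).

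Hadha and Hadhb encode the alpha and beta subunits of the trifunctional protein and are transcribed away from each other from starts that lie 273 bases apart on chromosome 5 of GRCm38.p6. Their promoter windows share the 228 bases at chr5:30155003-30155230, shown here on the plus strand because the pair was read in different ways, with no match to the repeat.
Hadha and Hadhb: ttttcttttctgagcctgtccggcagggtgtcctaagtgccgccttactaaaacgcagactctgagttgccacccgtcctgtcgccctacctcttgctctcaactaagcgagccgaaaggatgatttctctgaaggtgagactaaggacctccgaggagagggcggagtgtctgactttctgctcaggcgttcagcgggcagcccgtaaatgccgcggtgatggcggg
Hadha fell by 0.40 in CL (SE 0.069, adjusted p = 0.000225). Hadhb was read at 0.14 (SE 0.15, adjusted p = 0.597) by its brightest probe set, with a 95% interval of -0.17 to 0.45. A Hadhb probe set of nearly the same mean signal (11.85 beside 11.90) fell by 0.26 (adjusted p = 0.0107), so the sign for Hadhb depends on the probe set. Acaa2, the mitochondrial 3-ketoacyl-CoA thiolase, is likewise unsettled: its brightest probe set differed by -0.13 (adjusted p = 0.13), a second by -0.0067 and another by 0.50 (adjusted p = 0.000857). Hadh, the short chain 3-hydroxyacyl-CoA dehydrogenase, differed by -0.062, and Acad9, an acyl-CoA dehydrogenase relative that helps to assemble complex I, by 0.15 (adjusted p = 0.358). A dimmer Acad9 probe set differed by -0.30 (adjusted p = 0.071), so its sign too depends on the probe set. Over the 30 genes, 13 of 20 further probe sets, each no dimmer than the median probe set, had the sign of the brightest one.

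**Figure D2:**
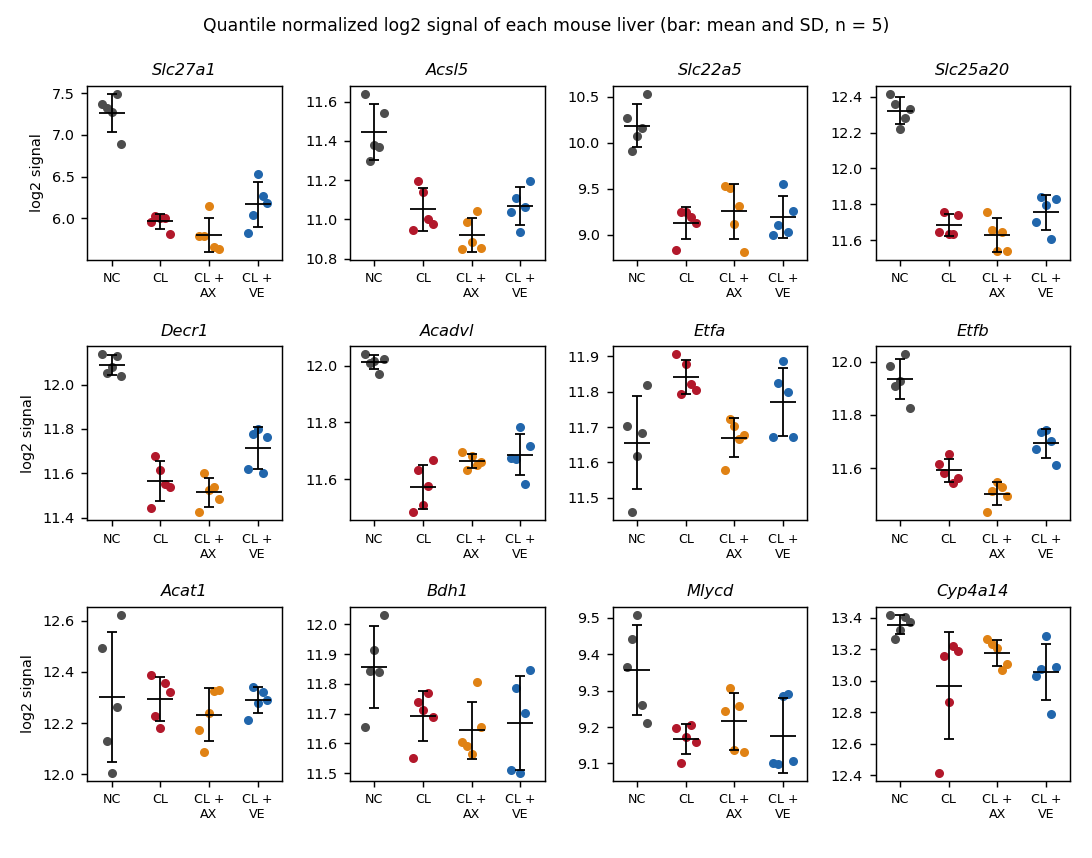
Quantile normalized log2 signal of each mouse (points) with the group mean and SD (bars, n = 5) for 12 of the genes, 2 per step in the order of the pathway, each panel with its own axis. For Slc27a1, Acsl5, Slc22a5, Slc25a20, Decr1, Acadvl and Etfb every NC mouse lies above every mouse of the other 3 groups.

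Electron transfer flavoprotein is a dimer of the Etfa and Etfb products, and the 2 genes were read in opposite directions between CL and NC with quantile normalization. Etfb read 11.98, 11.91, 11.93, 12.03 and 11.83 in the NC mice, 11.61, 11.58, 11.65, 11.54 and 11.56 in the CL mice, 11.43, 11.51, 11.55, 11.53 and 11.49 in the CL + AX mice and 11.67, 11.74, 11.74, 11.70 and 11.61 in the CL + VE mice. The NC mice were above all others, and every CL + AX mouse was below every CL + VE mouse. Etfb fell by 0.34 between NC and CL (SE 0.051, adjusted p = 5.31e-05). Etfa read 11.70, 11.46, 11.62, 11.68 and 11.82 in the NC mice, 11.91, 11.79, 11.88, 11.82 and 11.81 in the CL mice, 11.58, 11.72, 11.70, 11.67 and 11.68 in the CL + AX mice and 11.67, 11.82, 11.89, 11.80 and 11.67 in the CL + VE mice. The CL range overlapped that of NC at its lower end and lay wholly above that of CL + AX. Etfa was higher in CL by 0.18 (SE 0.063, adjusted p = 0.0463), the only member called higher. This call is weak: the difference was -0.19 when arrays were centred on their median and -0.043 when scaled to a trimmed mean, and it missed the threshold (adjusted p of 0.0514 to 0.148) when any 1 of 15 arrays was left out, these being NC 1 to NC 4, CL 1 to CL 5, CL + AX 2 to CL + AX 5, CL + VE 2 and CL + VE 4. Etfdh, which passes the electrons on to ubiquinone, differed by 0.16 (adjusted p = 0.186).

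The ratio of Etfa to Etfb within an array does not depend on a factor common to the array. Chosen after the values were seen and so given without a test, the log2 ratio of the deposited signals was -0.31, -0.47, -0.33, -0.39 and -0.0082 in the NC mice. It was 0.28, 0.21, 0.20, 0.27 and 0.23 in the CL mice. In the CL + AX mice it was 0.14, 0.21, 0.13, 0.13 and 0.19, and in the CL + VE mice 0.0017, 0.078, 0.13, 0.091 and 0.047. Every NC ratio was below 0, though NC 5 stood close to it, and every ratio in the 3 CL diet groups was above 0. The CL ratios were also above every CL + VE ratio, and the CL + AX ratios overlapped both. A ratio of 2 probe sets shows unequal change between them and not which of the 2 changed.

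**Figure D3:**
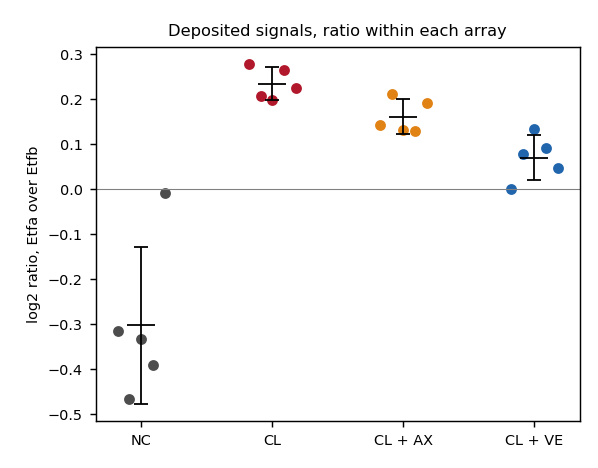
The log2 ratio of the deposited Etfa signal to the deposited Etfb signal within each array (points), with the mean and SD of each group of 5 mice (bars). The NC ratios run from -0.47 to -0.0082 and the CL ratios from 0.20 to 0.28.

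Of the ketogenesis genes, neither passed the test with quantile normalization, while both were called lower with median centring (Bdh1 -0.53, adjusted p = 9.18e-05; Acat1 -0.42, adjusted p = 0.0146) and with the trimmed mean (-0.39, adjusted p = 0.000356, and -0.28, adjusted p = 0.0363). Bdh1, the 3-hydroxybutyrate dehydrogenase that makes beta-hydroxybutyrate, read 11.66, 11.85, 11.91, 11.84 and 12.03 in the NC mice, 11.55, 11.74, 11.71, 11.77 and 11.69 in the CL mice, 11.60, 11.59, 11.56, 11.81 and 11.65 in the CL + AX mice and 11.51, 11.79, 11.50, 11.70 and 11.85 in the CL + VE mice. All groups overlapped. Bdh1 differed by -0.16 (SE 0.078, adjusted p = 0.164), though a dimmer Bdh1 probe set (mean log2 signal 8.62 beside 11.72) fell by 0.55 (adjusted p = 0.000994). Acat1, the mitochondrial acetoacetyl-CoA thiolase, read 12.49, 12.13, 12.01, 12.26 and 12.62 in the NC mice, 12.39, 12.23, 12.18, 12.36 and 12.32 in the CL mice, 12.17, 12.09, 12.24, 12.33 and 12.33 in the CL + AX mice and 12.21, 12.34, 12.28, 12.32 and 12.29 in the CL + VE mice. The NC mice spanned the ranges of the other groups. Acat1 differed by -0.0082 (95% interval -0.19 to 0.18), and of its 2 other probe sets one differed by 0.019 and the dimmest fell by 0.34 (adjusted p = 0.0205).

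Among the edge genes, 1 of 5 was called. Cyp4a14, an omega-hydroxylase that starts the route to dicarboxylic acids, read 13.42, 13.27, 13.32, 13.40 and 13.38 in the NC mice, 12.41, 13.16, 12.86, 13.22 and 13.19 in the CL mice, 13.27, 13.23, 13.21, 13.07 and 13.11 in the CL + AX mice and 13.03, 13.08, 13.28, 12.79 and 13.09 in the CL + VE mice. The CL mice lay wholly below NC but were widely spread, the lowest standing well under the rest. Cyp4a14 fell by 0.39 (SE 0.11, adjusted p = 0.0207). Without CL 1, the lowest mouse, the difference was -0.25 (adjusted p = 0.0509), and without CL 3 it was -0.36 (adjusted p = 0.0524). The probe set shared by Cyp4a10 and Cyp4a31 differed by -0.099 (adjusted p = 0.324). Mlycd, the malonyl-CoA decarboxylase that relieves the block of CPT1, read 9.37, 9.44, 9.51, 9.26 and 9.21 in the NC mice, 9.20, 9.10, 9.17, 9.20 and 9.16 in the CL mice, 9.24, 9.31, 9.14, 9.26 and 9.13 in the CL + AX mice and 9.10, 9.10, 9.28, 9.29 and 9.11 in the CL + VE mice. Its CL mice lay just below every NC mouse, and the other CL diet groups overlapped NC. Mlycd differed by -0.19 (SE 0.068) with an adjusted p of 0.0573. The acyl-CoA thioesterases Acot1 (cytosolic) and Acot2 (mitochondrial) differed by -0.62 (adjusted p = 0.0637) and -0.64 (adjusted p = 0.146), and a probe set that names both differed by -0.13 (adjusted p = 0.787). A dimmer probe set that names Acot2 alone (mean log2 signal 6.36 beside 9.44) fell by 2.03 (adjusted p = 0.0414). Pdk4, the pyruvate dehydrogenase kinase that spares glucose in fasting, had the widest spread of the 30 genes, from 7.57 to 9.17 in NC and from 7.74 to 9.35 in CL, and differed by 0.016 (SE 0.37).

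The members did not move as one block from mouse to mouse. Over the 20 arrays the 435 pairs of genes had a median Pearson r of 0.30, and with each group centred on its mean the median r was 0.085 (a description, since the arrays share their scaling). The closest pair after centring was Acot1 with Acot2 (r = 0.89), which stand side by side on chromosome 12 and are near copies of each other, and signal from one on the probes of the other was not tested.

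Astaxanthin was given on top of the CL diet, and the question was whether the pathway differed between CL + AX and CL. No member was called in either direction by limma, as no gene was (0%), and before adjustment p was under 0.05 for 3 members that were lower and 0 that were higher, beside 4.02% and 4.03% of all genes. The median log2 fold change was -0.050 (all genes 0.0085), and all 30 differences lay between -0.43 and 0.26. The smallest p was that of Acad9, which read 7.81, 7.77, 8.04, 7.89 and 7.64 in the NC mice, 8.32, 7.89, 8.01, 7.87 and 7.82 in the CL mice, 7.64, 7.56, 7.47, 7.68 and 7.41 in the CL + AX mice and 7.81, 7.72, 7.60, 7.997 and 7.68 in the CL + VE mice. Every CL + AX mouse was below every CL mouse, and CL + AX overlapped NC. Acad9 differed by -0.43 (SE 0.10, 95% interval -0.65 to -0.22, adjusted p = 0.315). A dimmer Acad9 probe set (mean log2 signal 6.67 beside 7.78) differed by -0.11 (adjusted p = 0.916). Etfa followed with -0.17 (SE 0.063, adjusted p = 0.549), Eci1 with -0.21 (SE 0.098, adjusted p = 0.667) and Acads with -0.12 (SE 0.065, adjusted p = 0.735). Cpt1a differed by -0.14 (95% interval -0.36 to 0.080), while its dimmer probe sets differed by 0.11 (adjusted p = 0.976) and 0.27 (adjusted p = 0.823). The 5 edge genes were all above 0, from 0.048 for Mlycd to 0.26 for Acot2, with intervals that all held 0. For 26 of the 30 genes the whole 95% interval lay within 0.5 of 0.

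Vitamin E was compared with CL in the same way, and these differences share the 5 CL arrays with those of astaxanthin. No member was called (all genes 0%), p before adjustment was under 0.05 for 3 higher and 2 lower members (all genes 4.85% and 2.70%), and the median was 0.013 (all genes 0.031). Relative to all genes it was -0.018 here and 0.054 under the other 3 scalings. The 4 smallest p values were those of Decr1 with 0.15 (adjusted p = 0.537), Acads with 0.14 (adjusted p = 0.628), Acadvl with 0.11 (adjusted p = 0.629) and Acad9 with -0.22 (adjusted p = 0.643). A dimmer Acad9 probe set had the opposite sign, at 0.37 (adjusted p = 0.354). The log2 3'/5' ratio was also higher in CL + VE than in CL by 0.28 for Actb (exact permutation test, two-sided, p = 0.00794) and 0.57 for Pcx (p = 0.0238), and its part in these differences was not tested. Decr1, Acads and Acadvl turned to -0.0095, -0.062 and -0.046 with the signals as deposited. Pdk4 differed by -0.78, with an interval from -1.55 to -0.0077 and an adjusted p of 0.654, the largest difference of the comparison and the least precise. For 27 of the 30 genes the 95% interval lay within 0.5 of 0.

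Between the supplements, at the same dose and time, 0 of 30 genes were called (all genes 0%), and p before adjustment was under 0.05 for 2 higher and 5 lower in CL + AX (all genes 3.66% and 6.59%). Acads differed by -0.26 (SE 0.065, adjusted p = 0.181), Etfb by -0.19 (SE 0.051, adjusted p = 0.215), Decr1 by -0.20 (SE 0.058, adjusted p = 0.254) and Slc27a1 by -0.36 (SE 0.14, adjusted p = 0.421). For Acads, Etfb and Decr1 every CL + AX mouse lay below every CL + VE mouse (3 of 30 genes wholly below, all genes 1.58%). Acadl, at 0.15 (adjusted p = 0.56), lay wholly above (1 of 30 genes, all genes 0.951%). Of the genes in the top 10% of signal, 3.42% lay wholly below and 2.27% wholly above. With the signals as deposited the differences of Acads, Etfb, Decr1 and Slc27a1 were 0.048, 0.052, 0.034 and 0.10. With median centring 17 of the 30 genes were called lower in CL + AX, beside 1112 of all 18193 genes lower and 10 higher. Of the 2954 genes in the top 10% of signal, 786 were lower with that scaling. Neither direction nor count is settled by these arrays. The median deposited signal of an array was higher in CL + AX than in CL + VE by 8.48 (exact permutation test, two-sided, p = 0.00794). The log2 3'/5' ratio was lower in CL + AX than in CL + VE by 0.26 for Actb and 0.38 for Pcx (p = 0.00794 for each by the same exact test), and differed by -0.11 for Gapdh (p = 0.119) and -0.094 for Dap (p = 0.952). The part of these values in the differences was not tested. Pdk4 was the member farthest above 0, at 0.86 (95% interval 0.089 to 1.63, adjusted p = 0.496).

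**Figure D4:**
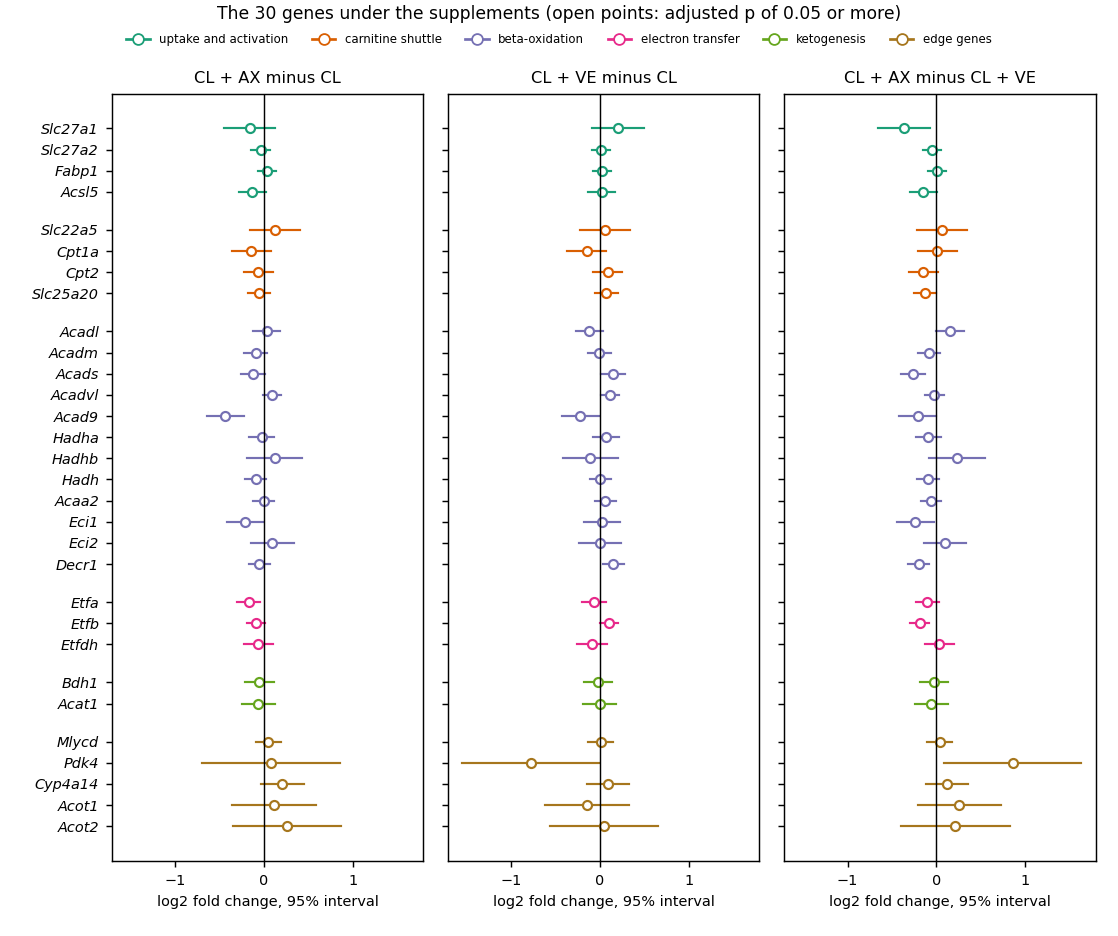
The log2 fold change of each of the 30 genes, with its 95% confidence interval, in CL + AX minus CL, CL + VE minus CL and CL + AX minus CL + VE (5 mice per group). All points are open, since no gene passed an adjusted p of 0.05, and Pdk4, Acot1 and Acot2 have the widest intervals.

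Both supplemented groups were also set against NC, and these comparisons share the 5 NC arrays with that of CL. The log2 3'/5' ratio of Dap ran from 2.97 to 3.39 in NC, 1.05 to 1.31 in CL + AX and 0.99 to 2.26 in CL + VE. That of Gapdh ran from 0.38 to 0.78, from -0.18 to -0.055 and from -0.16 to 0.11. Actb was higher in every NC array too, while for Pcx NC overlapped CL + VE. These differences and the diet cannot be told apart here either. In CL + AX, 13 of 30 genes were lower than in NC and 0 higher (all genes 11.3% and 12.0%), and in CL + VE 13 were lower and 0 higher (all genes 7.27% and 10.2%). The shuttle gave 4 of 4 lower genes in each, Cpt1a now among them with -0.38 (adjusted p = 0.0153) in CL + AX and -0.39 (adjusted p = 0.0167) in CL + VE. The Cpt1a call was lost in CL + AX without NC 4 (-0.31, adjusted p = 0.0533) and in CL + VE without NC 3 (-0.34, adjusted p = 0.0513), NC 4 (-0.32, adjusted p = 0.0552) or CL + VE 5 (-0.34, adjusted p = 0.051). It was also lost in both with the mean of its probe sets and with no variance trend. In CL + AX the Cpt1a call was also lost with the signals as deposited, and in CL + VE with a fit of only the groups compared. Over all alternatives the Cpt1a difference ran from -0.94 to -0.049 in CL + AX and from -0.65 to -0.32 in CL + VE. Slc27a1 stood at -1.46 in CL + AX and -1.10 in CL + VE, Slc22a5 at -0.93 and -0.995, Slc25a20 at -0.69 and -0.57, and Eci2 at -0.63 and -0.72, with adjusted p values from 1.54e-07 to 0.000434. Acsl5, Cpt2, Acads, Acadvl, Hadha, Decr1 and Etfb were also lower in both, from -0.57 to -0.35 in CL + AX and from -0.38 to -0.24 in CL + VE. Eci1 in CL + AX (-0.29, adjusted p = 0.0409) and Acot1 in CL + VE (-0.76, adjusted p = 0.0273) complete the counts. The Eci1 call was lost without NC 1, NC 4, NC 5, CL + AX 1, CL + AX 3 or CL + AX 4 (adjusted p of 0.0638 to 0.115), and the Acot1 call without NC 1, NC 5, CL + VE 1 or CL + VE 4 (adjusted p of 0.0665 to 0.0836). Cyp4a14, lower in CL, stood at -0.18 in CL + AX (adjusted p = 0.335) and -0.30 in CL + VE (adjusted p = 0.0886), and its own contrasts with CL were 0.21 (adjusted p = 0.758) and 0.086 (adjusted p = 0.926).

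Of 17 regulators of the pathway read, 7 were lower and 1 higher in CL, though with the signals as deposited 2 were lower and 3 higher. Ppara, the receptor itself, read 10.97, 10.83, 10.89, 10.93 and 10.88 in the NC mice, 10.61, 10.14, 10.32, 10.67 and 10.60 in the CL mice, 10.01, 10.08, 10.003, 10.23 and 10.63 in the CL + AX mice and 10.22, 10.15, 10.27, 10.20 and 10.22 in the CL + VE mice. All 5 CL mice lay below all NC mice. Ppara fell by 0.43 (SE 0.10, adjusted p = 0.00527). A second Ppara probe set fell by 0.63 (adjusted p = 6.87e-05) and another differed by -0.16 (adjusted p = 0.635). The difference was -0.28 between CL + AX and CL (adjusted p = 0.563) and -0.26 between CL + VE and CL (adjusted p = 0.565). Rxra, its partner, fell by 0.44 in CL (adjusted p = 7.58e-05), and Acacb, the carboxylase that makes malonyl-CoA at the mitochondrion, fell by 1.90 (SE 0.29, adjusted p = 6.04e-05). Of 10 other PPARA targets read, 6 were lower and 0 higher, led by the peroxisomal thioesterases Acot3 with -2.06 (adjusted p = 1.35e-06) and Acot4 with -0.91 (adjusted p = 2.06e-05). With the other 3 scalings 3 to 8 of the 10 were lower and 0 higher. Ppara, Rxra, Acacb, Acot3 and Acot4 were below 0 under all 4 scalings, and with the signals as deposited Acacb and Acot3 alone of the 5 passed the test.

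Neighbouring branches were mixed. Of 12 other uptake genes, 2 were lower and 2 higher in CL, with Slc27a4, another transport protein, at -0.80 (adjusted p = 3.32e-05) and Fabp2, the intestinal type of binding protein, at 0.94 (adjusted p = 1.28e-07). Of 11 other mitochondrial oxidation genes, 4 were lower and 1 higher, with Crat, the carnitine acetyltransferase, at -0.88 (adjusted p = 0.00028) and Acadsb, the dehydrogenase of short branched chains, at -0.55 (adjusted p = 0.00141). Of 11 peroxisomal oxidation genes, 3 were lower and 2 higher, with the fatty acid transporter Abcd3 at -0.35 (adjusted p = 9.72e-05) and the thiolase Acaa1a at -0.71 (adjusted p = 0.000467). Of 5 other ketone body genes, 1 was lower and 1 higher. Oxct1, which lets cells burn ketone bodies and is known to be scarce in hepatocytes, rose by 2.07 (SE 0.29, adjusted p = 3.39e-05), and Aacs, which returns acetoacetate to lipid synthesis, differed by -0.77 (adjusted p = 0.00533). Of 9 genes taken as a gauge of mitochondrial content, 3 were lower and 0 higher, with Vdac1 at -0.27 and Cox4i1 at -0.15. A Vdac1 probe set of mean log2 signal 10.80, beside 11.13, differed by 0.050 (adjusted p = 0.675), and further ones by -0.30 and -0.26. The median of the 9 genes was -0.021, near the -0.036 of all genes. Under the other 3 scalings that median lay 0.25 below all genes, and 5 of the 9 were called lower with median centring and with the trimmed mean. The peroxisomal median was 0.13 with quantile normalization and -0.34 with median centring, so no direction is given for that list. Of the 10 genes named here, Fabp2, Abcd3 and Oxct1 passed the test with the signals as deposited and the others did not. In the brightest probe sets no sign changed on that scale.

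Markers of other liver cells moved between the same groups. In CL, 10 of 12 macrophage and Kupffer cell markers were higher, their summed signal running from 10.73 to 12.38 in NC and from 13.03 to 14.37 in CL on the log2 scale, and 5 of 7 stellate cell and 4 of 5 endothelial markers were higher. Of 9 hepatocyte markers, 2 were lower and 0 higher, with a median of -0.031 and a summed log2 signal of 16.31 to 16.39 in NC and 16.28 to 16.34 in CL. Under the scalings by 1 factor the hepatocyte markers themselves lay below the median of all genes by 0.41, with 9 of 9 called lower with median centring and 7 of 9 with the trimmed mean, close to the 0.49 of the 30 oxidation genes under the same scalings. The part of cell composition in the falls of the pathway was not tested.

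**Figure D5:**
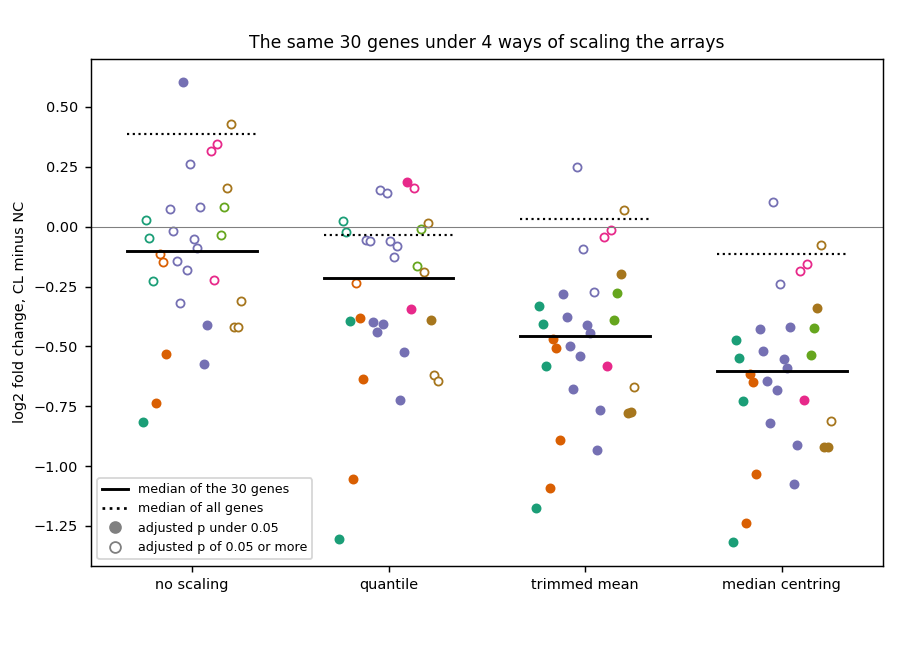
The log2 fold change between CL and NC of the 30 genes (points, coloured by step as in the plot of CL against NC) under 4 ways of scaling the arrays, with the median of the 30 genes (line) and of all 18193 genes (dotted line). The 30 genes lie below the median of all genes by 0.18 with quantile normalization and by 0.49 under the other 3, which change all genes of an array by 1 factor.

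Relative to the median of all genes, the 30 genes were lower in CL by 0.18 with quantile normalization and by 0.49 when each array was changed by 1 factor or left as deposited. The median of all genes itself was 0.39 with the signals as deposited, 0.031 with the trimmed mean and -0.11 with median centring. Over all genes, 2183 were called higher and 2048 lower with quantile normalization, 5132 and 212 with the signals as deposited, 2764 and 1856 with the trimmed mean, and 1705 and 2757 after median centring. Bright genes as a class shifted too: the top 10% of genes had a median of -0.0061 with quantile normalization, -0.24 with median centring and 0.27 with no scaling. Set against that class, the members were lower by 0.21 with quantile normalization and by 0.37 under the other 3 settings. Slc27a1, Slc22a5, Slc25a20, Eci2 and Decr1 act in uptake, in the shuttle and on unsaturated chains. These genes were called lower in all 29 alternative fits that were read gene by gene. Of those fits 20 leave out 1 array, and the methods' t-test, used only for counts of members, is not among them.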

How the data were processed

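Livers of 20 mice were measured on Affymetrix mouse genome arrays, 1 array per mouse. The authors computed the deposited intensity values with MAS5, 1 linear signal per probe set, and no scaling between arrays was found in the table. A genome build for the probe sets is not given in the sources used here. Here the 64 control probe sets were removed, the other 45037 were quantile normalized on the log2 scale, and all were fitted in limma 3.58.1 under R 4.3.3 in 1 model of the 4 groups (16 residual degrees of freedom, variance prior with a trend on the mean signal). Adjusted p values (Benjamini-Hochberg) take in every probe set tested, and 0.05 was the threshold. Of the probe sets, 34945 name 1 gene, 932 several and 9160 none, by the platform annotation of GEO, which can be old. Each gene took the values of its brightest probe set (highest mean log2 signal) among those naming it alone. Precision is limited by 5 arrays per group: the median SE of a difference was 0.076 over the 30 genes. Labels do not state cages or batches, so p values measure the spread between these mice.

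The members and the other gene lists were chosen with earlier results of these data known. All members were counted. Folds with tests are given for every member past the adjusted p, or for the 4 smallest p values where none passed, and values of every mouse for the 2 smallest p values per step between CL and NC (mean signal no lower than the median) and the 2 smallest in each supplement contrast, with up to 2 genes per other list and Ppara. Cpt1a and the values of further members were added by role after they were seen. The fit was tested on simulated data. Alternatives were no scaling, median centring, trimmed-mean scaling (2% cut at each end), signals under 10 raised to 10, only probe sets at or above the median, the mean of a gene's probe sets, smaller sets of groups in the fit, no variance trend, the methods' t-test, a replicate block and leaving out each array. Figures were drawn with matplotlib under Python.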

Additional observations from a re-analysis of the deposited data

Results flagged for a closer look

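In groups of 5 mice, a mouse was set apart where its gap to the nearest other mouse took up most of the range of its group, a rule that chance meets in about 1 in 20 groups. It was met by 2 of 120 groups of a gene and a diet (1.67%). Fabp1 read 13.94 in CL + VE 4 and 13.88 in each of the other 4 CL + VE mice, values that quantile normalization sets by rank for this brightest of probe sets. Acadl read 11.49 in CL + VE 1, below the 11.65 to 11.71 of the other CL + VE mice.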

How the results depend on the processing

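The counts of genes called against NC depended on the scaling between arrays. With no scaling, 5 genes were lower between CL and NC, 4 were lower and 3 higher between CL + AX and NC, and 6 were lower between CL + VE and NC. Median centring gave 24, 27 and 21 lower genes, and 0 higher between CL and NC, and trimmed-mean scaling gave 23, 24 and 20 lower and 0 higher. Over all 18193 genes, no scaling gave 212, 209 and 285 lower and 5132, 7771 and 2181 higher in the same contrasts. Median centring gave 2757, 3876 and 1580 lower and 1705, 1375 and 1615 higher over all genes. The trimmed mean gave 1856, 1852 and 1248 lower and 2764, 3048 and 2331 higher. Under these 3 settings, which keep ratios within an array, the median of the 30 genes relative to all genes was -0.49 in CL minus NC, -0.14 in CL + AX minus CL, -0.21 in CL + AX minus CL + VE, -0.65 in CL + AX minus NC and -0.43 in CL + VE minus NC. In CL + VE minus CL it turned from -0.018 to 0.054. Median centring also called 17 genes lower in CL + AX than in CL + VE, beside 1112 of all genes. With the mean of all probe sets of a gene the CL minus NC median was -0.34. Etfa between CL and NC was -0.19 after median centring and -0.043 after scaling to the trimmed mean. With the signals as deposited, Decr1, Acads and Acadvl in CL + VE minus CL turned to -0.0095, -0.062 and -0.046. On that scale Acads, Etfb, Decr1 and Slc27a1 in CL + AX minus CL + VE turned to 0.048, 0.052, 0.034 and 0.10. The count of 1 higher gene between CL and NC became 0 with only 2 groups in the fit, with no variance trend, with the methods' t-test and with the replicate block, and the t-test called 8 genes lower between CL + VE and NC. The t-test called 0 members in the 3 contrasts within the CL diet. The cause of these changes was not tested.

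When single arrays were left out, 11 to 14 genes were lower and 0 to 2 higher between CL and NC (median relative to all genes -0.24 to -0.16), 11 to 14 lower and 0 higher between CL + AX and NC (-0.29 to -0.22), and 12 to 14 lower and 0 higher between CL + VE and NC (-0.26 to -0.23). In the contrasts within the CL diet 0 genes were called in every such fit, with medians of -0.083 to -0.041 for CL + AX minus CL, -0.040 to -0.0036 for CL + VE minus CL and -0.047 to -0.017 for CL + AX minus CL + VE. Of 30 pairs of same-numbered arrays, 7 had a correlation over 0.1 (range -0.20 to 0.31, and 0.042 to 0.31 for CL with CL + AX). Arrays of different numbers were not compared, so these values cannot show whether replicate numbers pair the mice. The replicate block moved the calls between CL and NC from 7910 to 8076 probe sets. Calls went from 1 to 0 probe sets in CL + AX minus CL, from 0 to 3 in CL + VE minus CL and from 1 to 5 in CL + AX minus CL + VE. The block ended the calls of Etfa between CL and NC (adjusted p = 0.0653) and of Eci1 between CL + AX and NC (adjusted p = 0.063). It changed no other call of a member named by the rule.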
